A study of Mus musculus with 46 samples.

Results

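Potassium channel genes were taken by symbol, as every gene whose name is Kcn followed by family letters and a number and that had 10 or more counts in at least 3 libraries of a tissue. Of 57010 genes in the count files, 92 fitted the symbol pattern, and 80 of these passed the count minimum in heart or striatum. There were 39 such genes in heart and 75 in striatum, of which 34 were in both, 5 in heart alone (Kcne1, Kcnq1, Kcnv2, Kcna7 and Kcnj15) and 41 in striatum alone. The set holds pore-forming subunits and the accessory subunits named with them.

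Potassium channels carry the outward current that ends an action potential and sets the resting potential. In mouse ventricle, repolarisation rests mainly on the transient outward current of Kv4 channels, which need the calcium-binding subunit KChIP2 (Kcnip2), and on delayed rectifiers such as Kv1.5 (Kcna5). Inward rectifiers hold the resting potential, and in brain the astrocyte inward rectifier Kir4.1 (Kcnj10) takes up potassium released by active neurons. Thyroid hormone acts through nuclear receptors that bind repeats of the sequence AGGTCA, and cardiac ion channel genes have long been studied among its targets.

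The series measured RNA in 22 heart and 24 striatum libraries from adult mice and asked how an allele of the hairless gene Hr, HrDR5, alters the response to thyroid hormone (TH). Mutant mice carried HrDR5 on both alleles and were compared with wild-type (WT) mice. Within each genotype, 1 group received the antithyroid drug propylthiouracil (PTU) with food low in iodine for 15 days and then TH for 24 hours (PTU+TH), 1 received PTU without TH and was hypothyroid, and 1 was untreated. Groups held 4 libraries, except the PTU and the untreated mutant hearts with 3 each. For mutant PTU+TH replicate 1 of heart, only the 15 days of PTU are stated and the 24 hours of TH are not. Whole tissue was sequenced, so fewer cells of a type and less RNA per cell cannot be told apart. The labels do not say that each library came from its own animal, and the p-values measure the spread between these libraries.

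Library totals ran from 3.27 M to 19.532 M counts in heart and from 9.469 M to 13.657 M counts in striatum. Heart mutant untreated replicate 2 was the shallowest library, and 23.93% of its reads fell on no annotated feature, against 2.4 to 5.63% in the other hearts. By 8 atrial markers, 3 hearts stood apart, whose summed level was 1470 CPM in mutant PTU+TH replicate 4, 2120 CPM in mutant PTU replicate 3 and 1780 CPM in WT PTU+TH replicate 3, against 103 to 365 CPM in the others (CPM, the gene's count scaled to a common library size by TMM). WT PTU replicate 1 also stood apart: it had the lowest level of all hearts for the sarcomere gene Ttn (643 CPM, against 2429 to 6840 CPM in the others), the calcium release channel Ryr2 (235 CPM) and the vascular genes Myh11 (13.9 CPM), Flt1 (51.5 CPM) and Kdr (66.7 CPM). WT untreated replicate 1 was next lowest for Ryr2 (528 CPM), Myh11 (28.4 CPM), Flt1 (98.0 CPM) and Kdr (103 CPM). These genes were chosen after their values were seen, and RNA quality was not given for any library. Without both libraries 14 of 15 heart calls that use these groups held, and Kcna1 between genotypes in PTU hearts did not (log2 1.66, adjusted p = 0.0667). Cardiomyocyte markers summed to 33344 to 52624 CPM in hearts. Markers of striatal projection neurons summed to 4824 to 8513 CPM in striatum, lowest in a mutant PTU+TH library. Cortical excitatory markers in striatum summed to 30.1 to 418 CPM. Their medians were 198 CPM (30.1 to 317) in WT PTU+TH and 93.6 CPM (63.3 to 242) in WT PTU, and their part in the striatal calls was not tested. Reads on no feature made up 4.51 to 10.96% in WT PTU+TH and 4.98 to 12.23% in WT PTU striatum. With this share as a covariate the striatal calls on Kcnk1 and Kcnj10 held. Hr itself stood at 12.4 to 20.1 CPM in mutant PTU+TH hearts and at 69.4 to 80.6 CPM in WT PTU+TH hearts, without overlap.

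The promoters of 4 genes are shown here, chosen among called genes with a promoter in the reference used. Kcnip2 and Kcnj5 fell with TH in WT hearts, and Kcnk1 and Kcnj10 rose with TH in WT striatum. Kcne1, Kcnv2 and Kcna1 changed more with TH in WT hearts than Kcnip2 and Kcnj5. They had no promoter in that reference and are not in the motif shares below. Each window runs from 250 bases before to 50 bases after the annotated start, is written 5′ to 3′ on the gene's strand, and comes from RefSeq on build GRCm38.p6, an older build than the GRCm39 of the count files. Capitals mark GGTCA, the core of the sequence the receptor binds, on either strand. The windows lie at chr19:45816014-45816313 (minus strand) for Kcnip2, chr9:32344295-32344594 (minus strand) for Kcnj5, chr8:125994852-125995151 (plus strand) for Kcnk1 and chr1:172340960-172341259 (plus strand) for Kcnj10.
Kcnip2: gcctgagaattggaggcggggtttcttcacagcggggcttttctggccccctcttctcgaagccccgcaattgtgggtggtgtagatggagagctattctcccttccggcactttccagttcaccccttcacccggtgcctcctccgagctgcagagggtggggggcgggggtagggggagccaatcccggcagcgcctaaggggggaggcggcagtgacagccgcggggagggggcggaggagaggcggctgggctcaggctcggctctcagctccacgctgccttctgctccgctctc
Kcnj5: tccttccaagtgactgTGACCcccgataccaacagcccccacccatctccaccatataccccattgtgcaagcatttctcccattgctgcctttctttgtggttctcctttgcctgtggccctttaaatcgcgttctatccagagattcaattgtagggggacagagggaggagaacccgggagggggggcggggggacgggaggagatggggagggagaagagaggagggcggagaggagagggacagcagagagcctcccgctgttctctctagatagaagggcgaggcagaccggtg
Kcnk1: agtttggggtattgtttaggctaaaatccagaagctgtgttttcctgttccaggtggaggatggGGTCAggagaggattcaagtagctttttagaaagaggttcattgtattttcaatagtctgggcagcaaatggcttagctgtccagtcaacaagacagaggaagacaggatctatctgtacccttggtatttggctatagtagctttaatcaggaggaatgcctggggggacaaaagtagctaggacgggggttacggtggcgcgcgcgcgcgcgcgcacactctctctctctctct
Kcnj10: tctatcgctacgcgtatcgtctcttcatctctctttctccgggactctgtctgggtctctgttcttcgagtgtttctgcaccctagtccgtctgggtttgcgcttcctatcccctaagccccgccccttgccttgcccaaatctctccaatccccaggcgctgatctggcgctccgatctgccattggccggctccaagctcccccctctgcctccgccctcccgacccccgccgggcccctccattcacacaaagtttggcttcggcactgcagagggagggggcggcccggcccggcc

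In these letters the Kcnj5 window held 1 GGTCA, on the opposite strand 234 bases before the start, and the Kcnk1 window held 1 on the gene's strand 186 bases before the start. The windows of Kcnip2 and Kcnj10 held none, and their base composition was 67.0% and 63.7% G and C. None of the 4 held AGGTCA. Windows were found for 55 of the 80 genes, 78 windows in all, and AGGTCA on either strand was in 6.41% of them and in 16.3% of all 32851 promoter windows of the reference table. GGTCA was in 26.9% of the potassium channel windows and in 40.5% of all windows. The spaced pair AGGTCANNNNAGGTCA was in 0 potassium channel windows and in 0.0152% of all windows. These matches describe letters only, and binding was not measured.

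Levels per kb of exon separate the 2 tissues in untreated WT mice. In heart the highest genes were Kcnk3, the acid-sensitive leak channel TASK-1, at 49.7 ± 8.42 CPM per kb, and Kcnip2 at 40.5 ± 6.72 CPM per kb (SD, n = 4 each), and their ranges overlapped. Next came Kcnj11, the pore of the ATP-sensitive channel of cardiac muscle, at 26.03 ± 3.47 CPM per kb and Kcng2, a silent Kv modifier subunit, at 24.95 ± 4.83 CPM per kb, which overlapped each other and lay below Kcnip2. Kcnj3, a subunit of the acetylcholine-gated channel of atrial and nodal cells, followed at 15.4 ± 4.24 CPM per kb and did not overlap Kcng2.

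In striatum the 5 highest genes ran closely together in untreated WT mice. Kcnip2 stood at 65.4 ± 6.73 CPM per kb, Kcnj4 (the inward rectifier Kir2.3) at 60.1 ± 4.74, Kcnab1 (a Kv beta subunit) at 59.4 ± 6.53, Kcnd2 (Kv4.2, the partner of KChIP subunits) at 57.6 ± 3.94 and Kcnk1 (the leak channel TWIK-1) at 56.1 ± 12.1 CPM per kb (SD, n = 4 each). Each overlapped the next in rank. Kcnj10 was ninth, at 34.0 ± 4.65 CPM per kb.

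**Figure D1:**
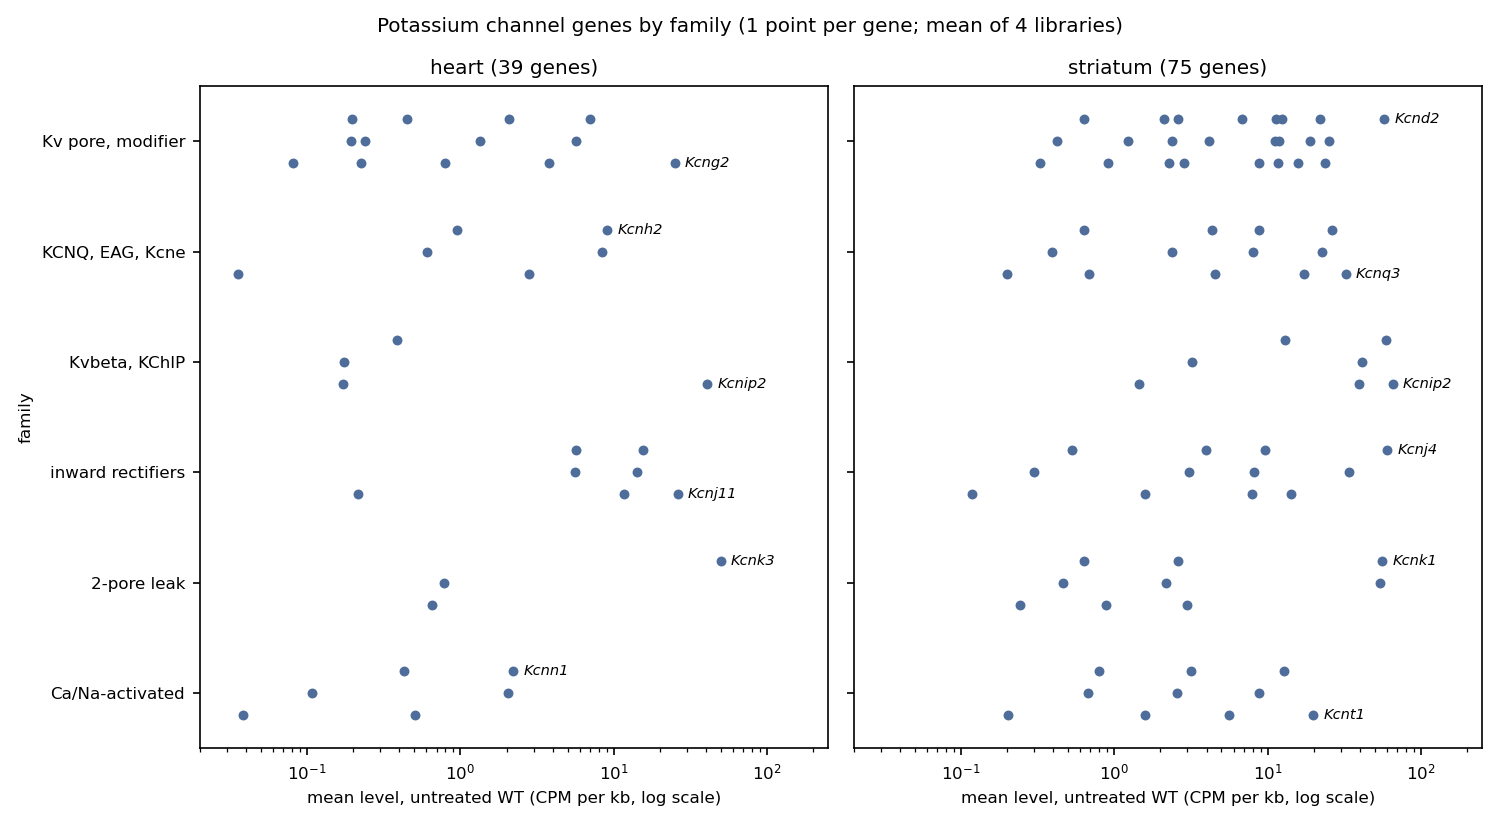
Mean level of each potassium channel gene in untreated WT libraries (CPM per kb of exon, log axis; 1 point per gene, mean of 4 libraries), by family, for 39 genes in heart and 75 in striatum. The top gene of each family is named: Kcnk3 leads heart at 49.7 CPM per kb and Kcnip2 leads striatum at 65.4 CPM per kb.

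Kcne1 and Kcnj10 marked opposite tissues. Kcne1, the accessory subunit that slows the KCNQ1 channel, summed to 3 counts over the 24 striatum libraries, with no more than 1 count in any, and is described in heart. Kcnj10 summed to 62 counts over the 22 heart libraries, with 0 to 10 in each, and is described in striatum. The heart genes just outside the count minimum, with 1 library at 10 or more counts, were Kcnd1, Kcnc2, Kcnj4, Kcnj10, Kcng4, Kcnip1, Kcnh7 and Kcnma1. The member just inside was Kcnt1, a sodium-activated channel, with 4 such libraries and a highest count of 11. Kcnt1 was too low in heart for the test, which left 38 heart genes. All 75 striatum genes were tested.

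Differences between groups were tested in each tissue with edgeR's quasi-likelihood test over all genes that passed its filter, 14156 in heart and 15670 in striatum. A gene is called changed at a Benjamini-Hochberg adjusted p below 0.05. In WT hearts TH after PTU changed 8 of 38 potassium channel genes, 3 higher and 5 lower, a share of 21.1% where 11.4% of all genes were called (5.81% higher and 5.59% lower). PTU against untreated changed 4 in WT hearts, 2 higher and 2 lower (10.5%, where 4.9% of all genes were called, 1.88% higher and 3.02% lower). In mutant hearts PTU changed 6, with 1 higher and 5 lower, a share of 15.8% that is near the 13.8% of all genes (6.24% higher and 7.54% lower). No test was made of a list's share against that of all genes.

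By family, the 8 WT calls with TH were 3 higher and 1 lower of 13 Kv pore and modifier genes (median log2 change 0.15), 2 lower of 6 KCNQ, ether-a-go-go and Kcne genes (-0.07), 1 lower of 4 Kv beta and KChIP genes (-0.13) and 1 lower of 7 inward rectifiers (-0.07). The 3 leak channels and the 5 tested calcium- and sodium-activated channels held no call. The median log2 change was 0.02 over the 38 genes and -0.03 over all genes tested.

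In mutant hearts TH after PTU changed 0 of 38, where 0.41% of all genes were called. Of the 38, 6 had an unadjusted p below 0.05, beside 1007 of all 14156 genes. DESeq2 called 3 of the 6 (Kcne1, Kcnip2 and Kcnj5). Mutant PTU+TH hearts against untreated mutant hearts gave 7 calls, 1 higher and 6 lower, a share of 18.4% beside 22% of all genes (10.7% higher and 11.3% lower). Their median log2 change over the 38 genes was -0.31, against -0.02 over all genes tested. In WT hearts the same comparison gave 1 call, lower, where 2.03% of all genes were called (1% higher and 1.03% lower).

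Between genotypes, 2 of 38 genes were called in PTU hearts, both higher in mutant, where 2.2% of all genes were called (1.55% higher and 0.65% lower). Untreated hearts gave 0 calls (0% of all genes; 2 potassium channel genes at an unadjusted p below 0.05, and 0 by DESeq2). PTU+TH hearts also gave 0 calls (0.0141% of all genes; 4 at an unadjusted p below 0.05, and 0 by DESeq2). The mutant minus WT difference was called for 0 genes in the response to PTU (0.579% of all genes; 7 at an unadjusted p below 0.05, and 1 by DESeq2). It was called for 0 in the response to TH (0.29% of all genes; 4 at an unadjusted p below 0.05, and 0 by DESeq2). Of all 14156 genes, 823 in untreated and 1764 in PTU+TH hearts were at an unadjusted p below 0.05 between genotypes. For the mutant minus WT difference they were 2263 in the PTU response and 632 in the TH response. The responses to PTU and to TH share the PTU libraries within a genotype, so a gene that is extreme in those libraries moves in both.

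**Figure D2:**
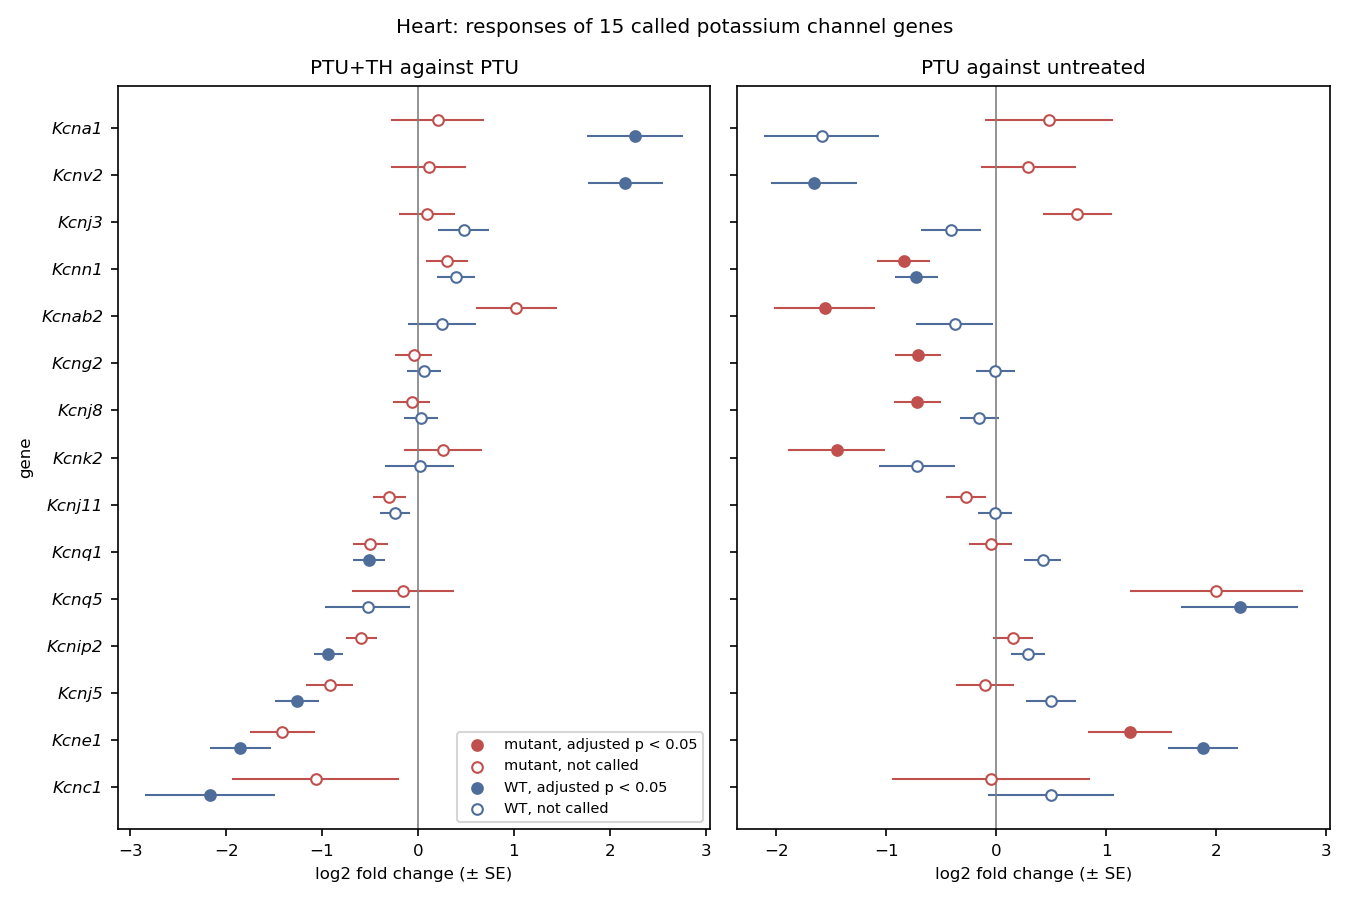
Log2 fold changes (point) with standard errors (line) of 15 potassium channel genes called in at least 1 heart comparison, for PTU+TH against PTU (left) and PTU against untreated (right). Mutant (red) stands above WT (blue) for each gene and filled points are called. In WT, Kcne1 fell by 1.85 with TH and Kcnv2 rose by 2.16, while 0 mutant points are filled on the left.

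The slow delayed rectifier is built from the pore Kcnq1 and the accessory subunit Kcne1, and Kcne1 was highest with PTU in both genotypes. In mutant hearts Kcne1 stood at 9.08, 7.46, 6.76 and 5.57 CPM with PTU+TH, at 18.1, 13.1 and 26.3 CPM with PTU and at 8.96, 7.82 and 7.80 CPM untreated. In WT hearts it stood at 9.91, 10.7, 9.45 and 5.87 CPM with PTU+TH, at 50.001, 29.0, 27.7 and 22.7 CPM with PTU and at 12.3, 14.0, 4.52 and 5.02 CPM untreated. In each genotype every PTU library was above every PTU+TH and untreated library, and WT PTU replicate 1, the library with low Ttn, was the highest of all. Without it and WT untreated replicate 1, the WT log2 changes of Kcne1 were 1.80 with PTU (adjusted p = 0.00204) and -1.5594 with TH (adjusted p = 0.000717).

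Kcne1 was 3.68-fold higher in PTU than in untreated WT hearts (log2 1.88 ± 0.32 SE, adjusted p = 0.000685) and fell with TH by 1.85 ± 0.32 on the log2 scale (adjusted p = 0.000281). Both calls held without each library in turn, with log2 changes of 1.59 to 2.18 for PTU and -1.998 to -1.559 for TH. In mutant hearts it was 2.33-fold higher with PTU (log2 1.22 ± 0.39, adjusted p = 0.0394). The mutant change with TH was -1.41 ± 0.34 and was not called (adjusted p = 0.0738). The mutant minus WT difference was -0.66 in the PTU response (95% interval -1.69 to 0.36, adjusted p = 0.523) and 0.44 in the TH response (-0.52 to 1.40, adjusted p = 1.00). PTU+TH hearts differed from untreated hearts by -0.20 in mutant (adjusted p = 0.741) and 0.03 in WT (adjusted p = 0.98).

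Kcnq1, the pore partner of Kcne1, was 32.3 ± 2.49 CPM in PTU+TH and 46.0 ± 3.50 CPM in PTU hearts of WT mice (SD, n = 4 each). It fell with TH by 0.51 ± 0.17 on the log2 scale (adjusted p = 0.0466). That call was lost without any 1 of the 8 libraries, with log2 changes of -0.56 to -0.47 and adjusted p of 0.0501 to 0.128. In mutant hearts Kcnq1 averaged 26.1 ± 3.82 CPM with PTU+TH (n = 4), 36.9 ± 7.74 CPM with PTU (n = 3) and 38.0 ± 5.26 CPM untreated (n = 3). Mutant PTU+TH was below mutant untreated by 0.54 ± 0.18 on the log2 scale (adjusted p = 0.0354). Leaving out mutant PTU+TH replicate 1 (adjusted p = 0.0926) or 2 (0.102), or mutant untreated replicate 2 (0.072) or 3 (0.179), ended this call. Kcnq1 shares 121 exon bases with the antisense RNA Kcnq1ot1, whose reads cannot be told apart where strand was not used in counting.

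Of the other 4 tested genes of the KCNQ, ether-a-go-go and Kcne families, only Kcnq5, a neuronal M-current subunit, was called in heart. Kcnq5 stood at 0.956, 0.882, 0.538 and 1.13 CPM in mutant PTU+TH, at 0.337, 1.39 and 1.27 CPM in mutant PTU and at 0.213, 0.391 and 0.208 CPM in mutant untreated hearts. In WT hearts it stood at 1.16, 0.575, 1.36 and 0.452 CPM with PTU+TH, at 0.735, 1.11, 2.50 and 0.766 CPM with PTU and at 0.0941, 0.513, 0.282 and 0.209 CPM untreated. All 4 WT PTU libraries exceeded all 4 untreated ones, and in mutant hearts the groups overlapped. With PTU its log2 difference was 2.004 ± 0.79 in mutant, which was not called (adjusted p = 0.0852), and it rose by 2.22 ± 0.53 in WT (adjusted p = 0.0141). These rest on 87 counts in WT PTU and 14 in WT untreated hearts, and the WT call was lost without WT PTU replicate 3 (log2 1.65, adjusted p = 0.0925). Kcnh2, the ERG channel of rapid repolarisation, was not called in any heart comparison (log2 0.49 ± 0.22 with TH in WT, adjusted p = 0.175).

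Among the 4 tested Kv beta and KChIP subunits, Kcnip2 had the smallest adjusted p of any potassium channel gene. In mutant hearts Kcnip2 stood at 94.1, 98.2, 103 and 75.1 CPM with PTU+TH, at 124, 157 and 137 CPM with PTU and at 117, 107 and 150 CPM untreated. In WT hearts it stood at 99.7, 97.8, 74.0 and 88.8 CPM with PTU+TH, at 178, 171, 162 and 177 CPM with PTU and at 173, 128, 120 and 143 CPM untreated. In each genotype every PTU+TH library was below every PTU and every untreated library. The lowest library of each PTU+TH group was the one with high atrial markers.

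Kcnip2 fell with TH in WT hearts by 0.93 ± 0.16 on the log2 scale (adjusted p = 0.00022), and the call held without each of the 8 libraries (-0.98 to -0.85). In mutant hearts the change was -0.59 ± 0.17 and was not called (adjusted p = 0.175), and the mutant minus WT difference was 0.34 (95% interval -0.13 to 0.82, adjusted p = 1.00). Against untreated WT hearts, PTU+TH was lower by 0.65 ± 0.16 on the log2 scale (adjusted p = 0.0296). This call was lost without WT PTU+TH replicate 2 (adjusted p = 0.0608), 3 (0.135) or 4 (0.0827), or WT untreated replicate 1 (0.0947) or 4 (0.0618). PTU alone gave 0.15 in mutant (adjusted p = 0.59) and 0.29 in WT (adjusted p = 0.335).

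The pores that KChIP2 joins were not called in heart. Kcnd2 (Kv4.2) averaged 27.2 ± 7.76 CPM in PTU+TH, 24.6 ± 7.34 in PTU and 29.3 ± 4.02 in untreated WT hearts, and Kcnd3 (Kv4.3) averaged 16.5 ± 3.70, 10.5 ± 4.58 and 12.9 ± 4.14 CPM in the same groups (SD, n = 4 each). With TH in WT their log2 changes were 0.15 (adjusted p = 0.78) and 0.66 (adjusted p = 0.144). In mutant hearts Kcnd2 was 37.8 ± 8.27 CPM with PTU+TH (n = 4) and 22.7 ± 7.51 CPM untreated (SD, n = 3), a log2 difference of 0.71 that edgeR's test did not call (adjusted p = 0.0574) and DESeq2 did (adjusted p = 0.04). Kcna4 (Kv1.4), a slower transient outward channel, was not called with TH, with log2 differences of -1.78 ± 0.52 in mutant (adjusted p = 0.192) and -0.98 ± 0.42 in WT hearts (adjusted p = 0.151).

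Of the 7 inward rectifiers, Kcnj5, a subunit of the acetylcholine-gated channel, fell with TH. In mutant hearts Kcnj5 stood at 25.5, 27.8, 31.6 and 32.8 CPM with PTU+TH, at 33.6, 52.0 and 81.3 CPM with PTU and at 50.4, 47.3 and 80.1 CPM untreated. In WT hearts it stood at 26.4, 31.3, 41.1 and 29.8 CPM with PTU+TH, at 95.5, 61.8, 78.0 and 74.1 CPM with PTU and at 46.5, 53.0, 49.98 and 69.02 CPM untreated. PTU+TH libraries lay below all PTU and all untreated libraries of their genotype. Of the 3 hearts with high atrial markers, each was the highest of its group, and WT PTU replicate 1 was the highest of all.

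Kcnj5 fell with TH in WT hearts by 1.26 ± 0.23 on the log2 scale (adjusted p = 0.000554), also without each library (-1.40 to -1.15). The mutant change was -0.92 ± 0.24 and was not called (adjusted p = 0.133), and it was called without mutant PTU replicate 1 (-1.18, adjusted p = 0.0172). Mutant PTU+TH hearts were 0.493 times untreated mutant hearts (log2 -1.02 ± 0.25, adjusted p = 0.00679), which was lost without mutant untreated replicate 3 (-0.73, adjusted p = 0.0698). The same comparison in WT gave -0.76 ± 0.23 (adjusted p = 0.0865).

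Kcnj3, the partner of Kcnj5 in that channel, went the other way in mutant hearts. It averaged 117 ± 27.9 CPM with PTU+TH (n = 4), 109 ± 55.0 CPM with PTU (n = 3) and 65.0 ± 20.0 CPM untreated (SD, n = 3). PTU+TH exceeded untreated by 0.84 ± 0.30 on the log2 scale (adjusted p = 0.0479). Leaving out mutant PTU+TH replicate 2, 3 or 4 ended the call (adjusted p = 0.0971, 0.0795 and 0.112), as did leaving out mutant untreated replicate 2 (0.244) or 3 (0.0866). The highest PTU+TH library, at 139 CPM, and the highest PTU library, at 172 CPM, were those with high atrial markers, and the part of atrial tissue in the change was not tested beyond leaving them out. Kcnj3 shares 1621 exon bases with Gm26794 on the other strand, and in WT hearts its change with TH was 0.48 ± 0.27 (adjusted p = 0.309).

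The ATP-sensitive channel genes Kcnj8, the pore of the vascular channel, and Kcnj11 were lower in mutant PTU+TH than in untreated mutant hearts. Kcnj8 stood at 26.9, 23.8, 26.1 and 24.5 CPM with PTU+TH, at 27.6, 27.3 and 24.6 CPM with PTU and at 45.1, 46.1 and 39.6 CPM untreated in mutant hearts. In WT hearts it stood at 45.5, 31.3, 26.2 and 29.8 CPM with PTU+TH, at 41.8, 31.1, 27.6 and 29.2 CPM with PTU and at 47.9, 35.8, 28.7 and 32.2 CPM untreated. The untreated mutant libraries lay above all 7 treated mutant libraries, and the WT groups overlapped.

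In mutant PTU+TH hearts Kcnj8 was below untreated by 0.78 ± 0.19 on the log2 scale (adjusted p = 0.00799), also without each library (-0.84 to -0.75). With PTU alone its log2 change was -0.71 ± 0.21 (adjusted p = 0.031). In WT the PTU change was -0.15 (adjusted p = 0.706), and the mutant minus WT difference was -0.56 (95% interval -1.13 to 0.01, adjusted p = 0.316). Markers of smooth muscle and pericytes, 8 genes with none at 0, were also highest in untreated mutant hearts. In mutant hearts they summed to 622 to 701 CPM with PTU+TH, 727 to 802 CPM with PTU and 803 to 1069 CPM untreated. These sums separated PTU from PTU+TH, where Kcnj8 overlapped. In WT hearts they overlapped, at 658 to 766 CPM with PTU+TH, 643 to 819 CPM with PTU and 581 to 840 CPM untreated. The marker Rgs5 alone stood at 394 to 805 CPM over all hearts. The part of these cells in the Kcnj8 result was not tested.

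Kcnj11 stood at 67.5, 72.2, 77.6 and 69.3 CPM in mutant PTU+TH, at 78.9, 89.2 and 95.9 CPM in mutant PTU and at 85.8, 92.3 and 140 CPM in mutant untreated hearts. WT hearts had 95.4, 76.5, 78.4 and 72.4 CPM with PTU+TH, 85.5, 94.4, 97.9 and 103 CPM with PTU and 84.3, 95.2, 89.7 and 114 CPM untreated. The mutant PTU+TH libraries lay below the other mutant libraries. Mutant PTU+TH was lower than mutant untreated by 0.57 ± 0.17 on the log2 scale (adjusted p = 0.0195), which ended on leaving out mutant untreated replicate 3 (-0.31, adjusted p = 0.227) or replicate 1 of mutant PTU+TH (-0.54, adjusted p = 0.0527). Abcc8, a sulfonylurea receptor that forms the regulatory part of such channels, was also lower in that comparison, at 24.2 ± 2.81 CPM in mutant PTU+TH and 43.3 ± 12.0 CPM in mutant untreated hearts (log2 -0.83 ± 0.22, adjusted p = 0.0116). Abcc9, the more abundant sulfonylurea receptor, was not called there, at 394 ± 31.0 CPM and 302 ± 70.3 CPM in the same groups (log2 0.38 ± 0.28, adjusted p = 0.349). The classical cardiac inward rectifiers Kcnj2 and Kcnj12 were not called in any heart comparison. Kcnj2 averaged 36.9 ± 9.32 CPM in mutant PTU+TH (n = 4), 34.5 ± 1.08 CPM in mutant PTU and 31.6 ± 13.3 CPM in mutant untreated hearts (SD, n = 3 each). WT hearts averaged 26.7 ± 5.18, 35.8 ± 2.66 and 31.02 ± 7.00 CPM in the same order (n = 4 each).

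Of the 13 Kv pore and modifier genes, Kcnv2 and Kcna1 were among those with their lowest group mean in WT PTU hearts. Their mutant PTU means were above their mutant untreated means. This order was not theirs alone, as Kcnd3, which was not called, had it too. Kcnd3 stood at 18.8, 14.5 and 17.5 CPM in mutant PTU and at 11.6, 13.3 and 13.2 CPM in mutant untreated hearts. Kcnv2 encodes Kv8.2, a silent subunit that conducts only together with the pores of other Kv genes. Kcna1 encodes the Kv1.1 pore, best known from axons.

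Kcnv2 stood at 10.7, 19.8, 16.1 and 16.2 CPM in mutant PTU+TH, at 19.4, 14.8 and 9.42 CPM in mutant PTU and at 10.8, 9.77 and 14.5 CPM in mutant untreated hearts. WT hearts had 10.2, 13.4, 18.8 and 17.9 CPM with PTU+TH, 1.29, 1.96, 4.37 and 6.13 CPM with PTU and 4.23, 14.2, 12.7 and 11.3 CPM untreated. The WT PTU libraries lay below every mutant library and every WT PTU+TH library, and overlapped only WT untreated replicate 1. The lowest library, WT PTU replicate 1, and that untreated library are the 2 with the lowest Ryr2, Myh11, Flt1 and Kdr, and the part of what sets them apart was not tested beyond leaving them out. Without both, Kcnv2 still rose with TH (1.87, adjusted p = 0.000232) and fell with PTU in WT by 1.62 on the log2 scale (adjusted p = 0.00501), and was higher in mutant than in WT PTU hearts (1.82, adjusted p = 0.00371). Kcnv2 rose 4.48-fold with TH in WT hearts (log2 2.16 ± 0.39, adjusted p = 0.000457), also without each library (1.87 to 2.57).

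Kcnv2 fell with PTU in WT by 1.66 ± 0.39 on the log2 scale (adjusted p = 0.0113, and 0.0504 without WT PTU replicate 2). In mutant hearts the TH change was 0.11 (95% interval -0.70 to 0.92, adjusted p = 1.00) and the PTU change 0.29 (-0.60 to 1.19, adjusted p = 0.675). In PTU hearts it was 4.31-fold higher in mutant than in WT (log2 2.11 ± 0.41, adjusted p = 0.00615), and the call was lost without mutant PTU replicate 1 (adjusted p = 0.0706). The mutant minus WT difference was 1.95 ± 0.58 in the PTU response (95% interval 0.75 to 3.15, adjusted p = 0.12) and -2.05 ± 0.54 in the TH response (-3.18 to -0.93, adjusted p = 0.168), and neither was called. The PTU difference was called without the WT PTU and untreated libraries numbered 1 (1.91, adjusted p = 0.0488). Without WT PTU replicate 4 both were called (2.38, adjusted p = 0.0441, and -2.49, adjusted p = 0.0274).

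Kcna1 was low throughout heart, at 2.01, 1.60, 1.31 and 2.74 CPM in mutant PTU+TH, at 1.68, 1.51 and 1.77 CPM in mutant PTU and at 1.71, 0.782 and 0.832 CPM in mutant untreated hearts. WT hearts had 1.34, 1.65, 1.73 and 2.71 CPM with PTU+TH, 0.0460, 0.392, 0.114 and 1.15 CPM with PTU and 1.03, 0.821, 1.30 and 1.40 CPM untreated. The WT PTU values rest on 24 counts in 4 libraries, and replicate 4 was the only one of them near the other groups. The lowest was WT PTU replicate 1.

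Kcna1 rose with TH in WT by 2.27 ± 0.50 on the log2 scale (adjusted p = 0.00357), also without each library (1.82 to 3.38), and its mutant value was 0.21 (95% interval -0.79 to 1.21, adjusted p = 1.00). Its PTU change in WT, -1.58 ± 0.52, was not called (adjusted p = 0.0865), but was in the fit with a replicate block (-1.69, adjusted p = 0.0318) and without WT PTU replicate 4 (-2.71, adjusted p = 0.00174). Kcna1 was 4.28-fold higher in mutant than in WT PTU hearts (log2 2.10 ± 0.55, adjusted p = 0.0448). That call was lost without mutant PTU replicate 1 (adjusted p = 0.173), 2 (0.108) or 3 (0.116), or WT PTU replicate 1 (0.0882), 2 (0.0857) or 3 (0.13). The mutant minus WT difference was 2.07 (adjusted p = 0.206) in the PTU response and -2.06 (adjusted p = 0.5) in the TH response. Without WT PTU replicate 4 both were called (3.20, adjusted p = 0.0245, and -3.19, adjusted p = 0.0139).

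Kcnc1 (Kv3.1), a pore of fast-firing neurons, fell with TH in WT hearts by 2.17 ± 0.68 on the log2 scale (adjusted p = 0.0398), at 0.264 ± 0.198 CPM in PTU+TH and 1.22 ± 0.471 CPM in PTU hearts (SD, n = 4 each) and on 14 and 78 counts. The call was lost without WT PTU+TH replicate 1 (adjusted p = 0.095), 2 (0.0856) or 3 (0.135), or WT PTU replicate 2 (0.0651), 3 (0.0908) or 4 (0.0809).

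**Figure D3:**
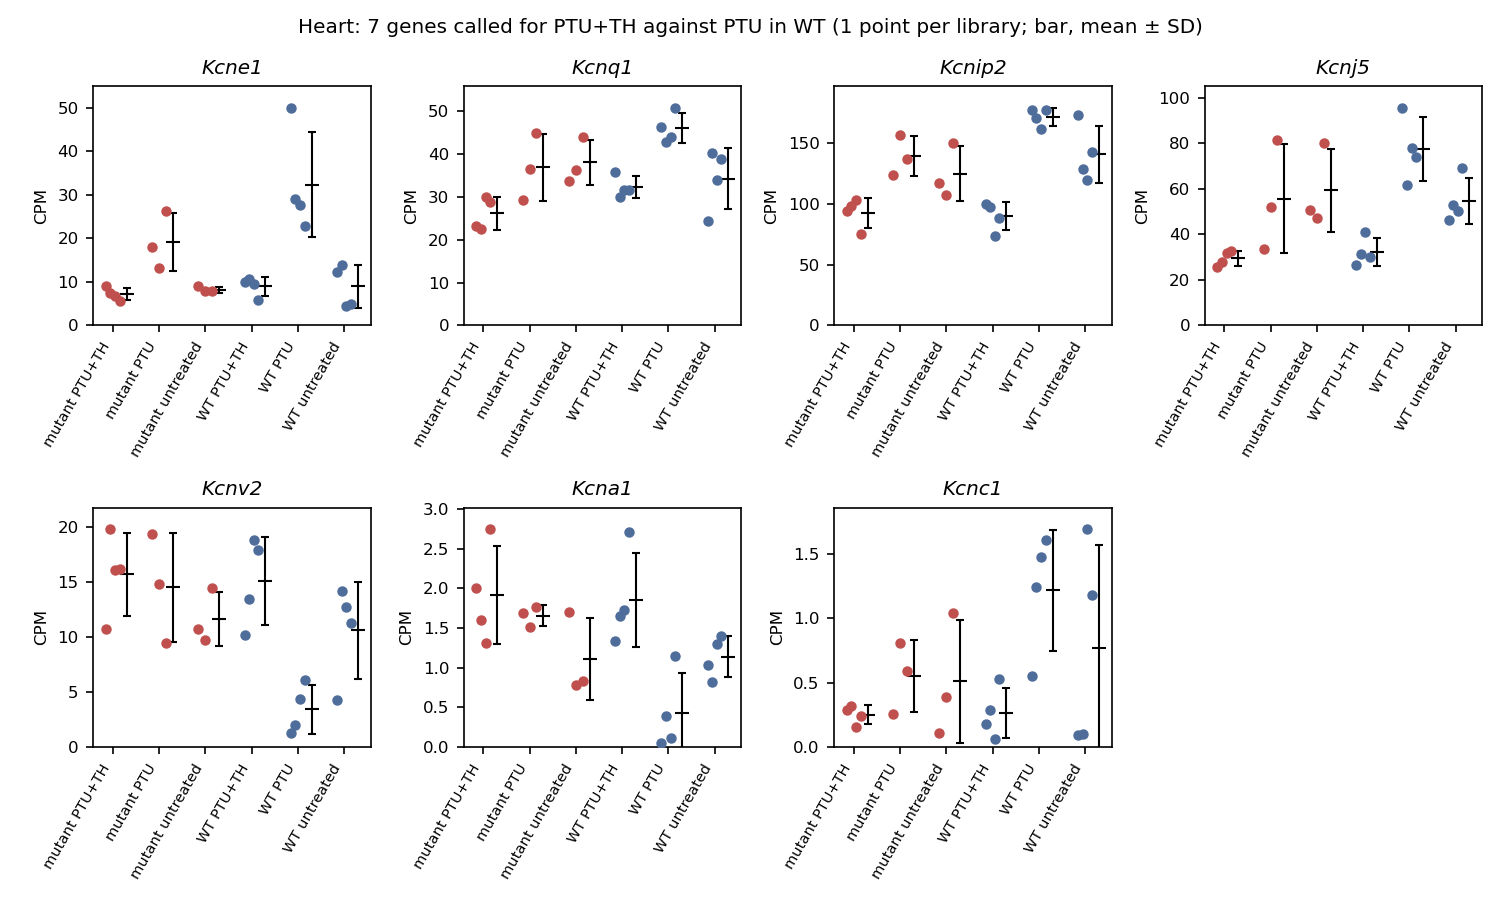
Level (CPM) of 7 genes called for PTU+TH against PTU in WT hearts, by group, with 1 point per library (mutant red, WT blue) and a bar for mean ± SD, drawn from 0 upward. For Kcne1, WT PTU libraries (22.7 to 50.001 CPM) are above all other WT libraries and overlap mutant PTU replicate 3 (26.3 CPM). For Kcnv2, WT PTU libraries (1.29 to 6.13 CPM) overlap only WT untreated replicate 1 (4.23 CPM), and mutant PTU libraries run from 9.42 to 19.4 CPM.

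Kcng2 stood at 59.2, 55.7, 68.5 and 52.9 CPM in mutant PTU+TH, at 59.98, 54.3 and 68.5 CPM in mutant PTU and at 77.2, 138 and 85.9 CPM in mutant untreated hearts. WT hearts had 96.4, 68.8, 76.9 and 68.2 CPM with PTU+TH, 80.6, 67.5, 70.6 and 78.5 CPM with PTU and 95.7, 65.4, 65.0 and 72.3 CPM untreated. The treated mutant libraries lay below the untreated ones, of which replicate 2, the library with 23.93% of reads on no feature, was the highest. Against untreated mutant hearts Kcng2 was lower by 0.75 ± 0.19 with PTU+TH (adjusted p = 0.00932) and by 0.71 ± 0.21 with PTU (adjusted p = 0.0311) on the log2 scale. Without mutant untreated replicate 2 the changes were -0.48 (adjusted p = 0.109) and -0.41 (adjusted p = 0.238), and neither was called.

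Kcnk2, the stretch- and lipid-sensitive leak channel TREK-1, was the 1 called gene of 3 leak channels. It averaged 2.22 ± 0.224 CPM in mutant PTU+TH (n = 4), 1.85 ± 0.0998 CPM in mutant PTU (n = 3) and 5.79 ± 4.47 CPM in mutant untreated hearts (SD, n = 3), where replicate 2 stood at 10.9 CPM. It was lower by 1.19 ± 0.40 with PTU+TH (adjusted p = 0.0354) and by 1.45 ± 0.44 with PTU (adjusted p = 0.0336) on the log2 scale. Without mutant untreated replicate 2 these were -0.55 (adjusted p = 0.341) and -0.79 (adjusted p = 0.243). Leaving out any 1 of the PTU+TH libraries also ended the PTU+TH call (adjusted p = 0.0558, 0.0674, 0.0558 and 0.0772 for replicates 1 to 4).

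In that same library, mutant untreated replicate 2, the 8 macrophage markers summed to 259 CPM and the 7 nerve and Schwann cell markers to 79.4 CPM. The other mutant untreated hearts had 106 and 138 CPM, and 13.7 and 23.2 CPM. Of the nerve markers, Th, the enzyme of catecholamine synthesis, was at 0 in every heart. The part of these cells in the Kcng2 and Kcnk2 results was not tested. Kcnk3, the most abundant leak channel, averaged 168 ± 20.4 CPM in mutant PTU+TH and 197 ± 20.7 CPM in WT PTU+TH hearts (SD, n = 4 each) and was not called in any heart comparison.

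Kcnn1, the SK1 subunit of a calcium-activated channel, was called lower with PTU in both genotypes. It stood at 6.40, 6.18, 8.15 and 5.65 CPM in mutant PTU+TH, at 5.97, 4.75 and 5.30 CPM in mutant PTU and at 7.68, 8.60 and 12.2 CPM in mutant untreated hearts. WT hearts had 9.64, 8.41, 7.10 and 7.15 CPM with PTU+TH, 5.33, 6.02, 6.82 and 6.36 CPM with PTU and 7.71, 8.21, 10.8 and 13.6 CPM untreated. In each genotype every PTU library was below every untreated library. The log2 changes were -0.84 ± 0.24 in mutant (adjusted p = 0.0278) and -0.73 ± 0.19 in WT (adjusted p = 0.0292). The WT call was lost without WT PTU replicate 1 (adjusted p = 0.0514), 2 (0.0722) or 4 (0.0508), or WT untreated replicate 3 (0.06) or 4 (0.124).

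Kcnab2, a Kv beta subunit, stood at 0.956, 0.962, 2.15 and 0.646 CPM in mutant PTU+TH, at 0.757, 0.348 and 0.588 CPM in mutant PTU and at 1.49, 2.74 and 1.46 CPM in mutant untreated hearts. WT hearts had 1.07, 1.15, 0.617 and 0.678 CPM with PTU+TH, 0.873, 0.654, 0.738 and 0.613 CPM with PTU and 0.941, 1.13, 0.791 and 0.977 CPM untreated. The mutant PTU libraries lay below the mutant untreated ones, on 18 and 35 counts in all. With PTU in mutant hearts it fell by 1.56 ± 0.46 on the log2 scale (adjusted p = 0.0309), against -0.38 ± 0.35 in WT (adjusted p = 0.629). Exons of Kcng2, Kcnk2, Kcnn1, Kcnq5 and Kcnk3 overlap genes of the opposite strand by 132 to 604 bases, so antisense reads cannot be told apart there without strand.

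The 6 calls with PTU in mutant hearts (Kcnn1, Kcnab2, Kcnj8, Kcng2, Kcnk2 and Kcne1) depended on single libraries. So did calls over all genes in this comparison, 1952 with every library and 85 to 3163 without 1 library. Without mutant untreated replicate 2 all 6 were lost, with adjusted p of 0.0783 to 0.243. The same held without mutant PTU replicate 2 (0.0671 to 0.134) or replicate 3 (0.0545 to 0.155). Without mutant PTU replicate 1, Kcnj8, Kcnk2, Kcne1 and Kcng2 were lost (0.0608 to 0.0741). Without mutant untreated replicate 3, Kcnn1, Kcnab2, Kcnj8 and Kcne1 were lost (0.0525 to 0.169). Macrophage markers moved with these comparisons in both genotypes, summing to 57.7 to 87.0 CPM in mutant PTU+TH, 55.5 to 63.1 CPM in mutant PTU and 106 to 259 CPM in mutant untreated hearts. WT hearts had 58.7 to 95.1, 59.2 to 75.1 and 99.9 to 155 CPM in the same order, and none of the 8 markers was at 0.

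**Figure D4:**
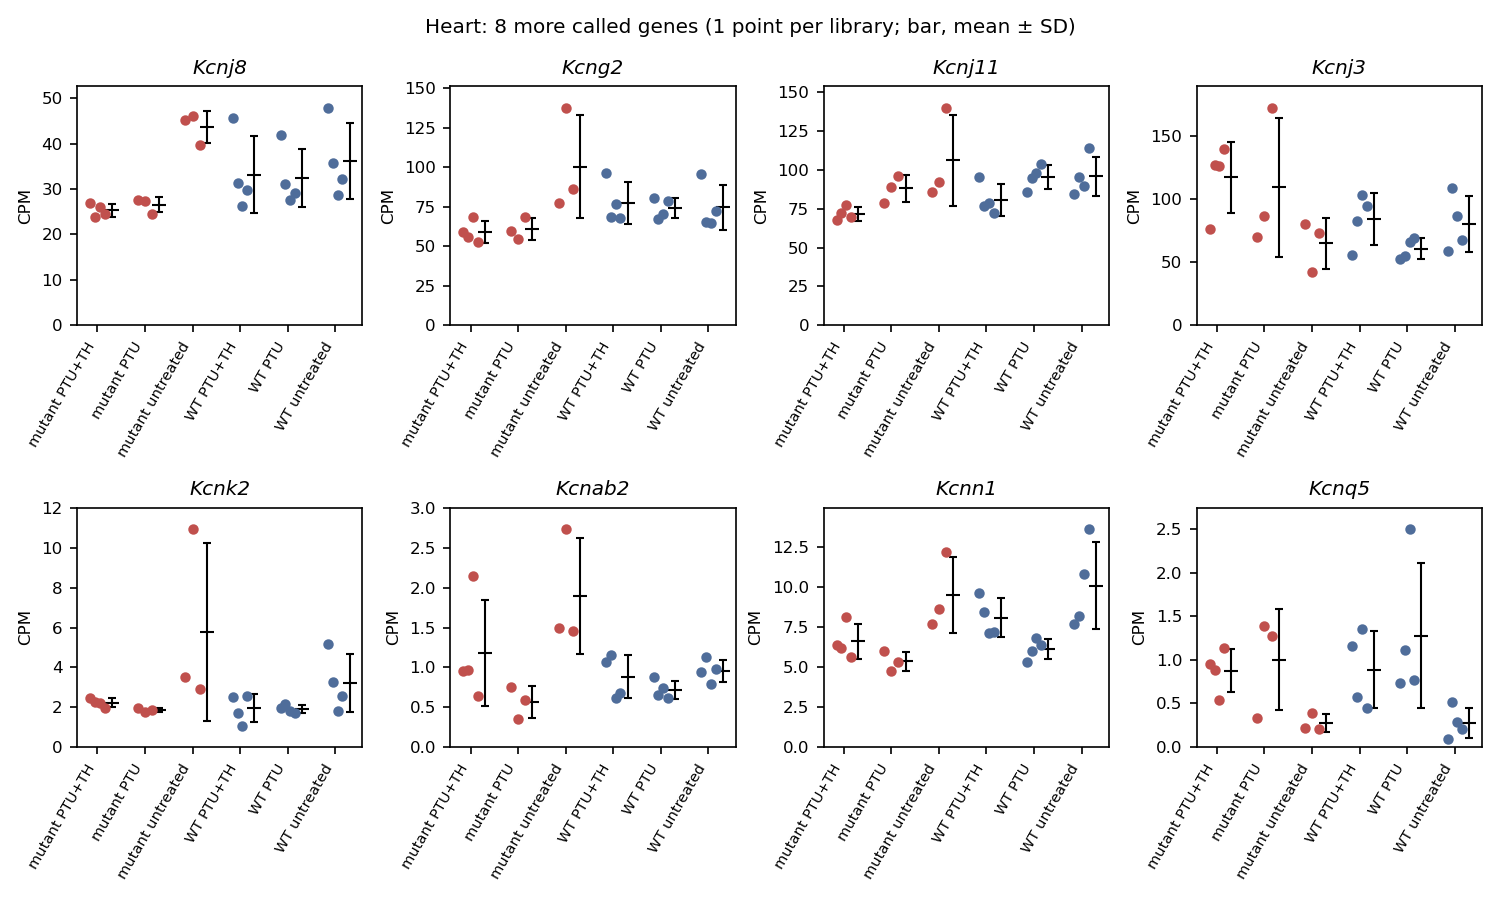
Level (CPM) of 8 more potassium channel genes called in heart, by group, with 1 point per library (mutant red, WT blue) and a bar for mean ± SD. Mutant untreated libraries are the highest mutant libraries for Kcnj8 (39.6 to 46.1 CPM), and replicate 2 of that group reaches 138 CPM for Kcng2 and 10.9 CPM for Kcnk2.

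A list of 18 genes that bind or regulate these channels was read beside them, of which 13 were tested in heart. With TH in WT hearts 4 of these 13 were called, 3 higher and 1 lower, where 11.4% of all genes were called. Cntn2, a contactin that clusters Kv1 channels on axons, rose by 3.40 ± 0.44 on the log2 scale (adjusted p = 1.17e-05). Lgi1, a secreted protein bound to Kv1 channels in neurons, rose by 0.86 ± 0.23 (adjusted p = 0.0137), and Lrrc55, an accessory subunit of the calcium-activated BK channel, rose by 2.07 ± 0.45 (adjusted p = 0.00281). Lrrc52, another BK accessory subunit, fell by 3.81 ± 0.49 (adjusted p = 1.06e-05).

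With PTU in WT hearts the same 4 genes were called with the opposite signs, in a comparison that shares the PTU libraries. There 4.9% of all genes were called. Between genotypes in PTU hearts 2 of the 13 were called higher in mutant and 1 lower, where 2.2% of all genes were called. In PTU hearts Cntn2 averaged 3.89 ± 1.37 CPM in mutant (n = 3) and 1.08 ± 0.692 CPM in WT (SD, n = 4), a log2 difference of 1.89 ± 0.48 (adjusted p = 0.0398). Lrrc55 was also higher in mutant, at 1.55 ± 0.147 CPM against 0.411 ± 0.211 CPM in WT (log2 1.92 ± 0.49, adjusted p = 0.0399). Calls on partner genes come from the main test alone, with no check by leaving out libraries or by the other settings. Lrrc52 was lower, at 1.37 ± 0.654 CPM in mutant and 5.04 ± 3.43 CPM in WT (log2 -1.91 ± 0.47, adjusted p = 0.0344). Against untreated, Lrrc52 rose with PTU by 3.73 ± 0.95 in mutant (adjusted p = 0.017) and by 3.61 ± 0.49 in WT hearts (adjusted p = 6.02e-05), and the mutant minus WT difference was 0.11 (adjusted p = 0.958). It was also higher in mutant PTU+TH than in mutant untreated hearts (2.99 ± 0.97, adjusted p = 0.0308), where untreated libraries held 0 to 0.208 CPM. Its mutant minus WT difference in the TH response was 3.08 ± 0.74 and was not called (adjusted p = 0.0956). The pore that Lrrc52 and Lrrc55 join, Kcnma1, was below the count minimum in heart, with a highest count of 10.

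In striatum 2 of 75 potassium channel genes were called, both higher in PTU+TH than in PTU in WT, a share of 2.67% where 0.459% of all genes were called (0.383% higher and 0.0766% lower). They were Kcnk1 and Kcnj10. Of the 9 leak channels, 8 had a positive log2 change with TH in WT (median 0.33) and 0 with PTU in WT (median -0.20), in comparisons that share the PTU libraries. Over all 75 potassium channel genes, 30 did not rise with TH in WT and 52 did not rise with PTU in WT. The median over all genes tested was -0.01 with TH and 0.00 with PTU. The other 10 striatal comparisons gave 0 calls among potassium channel genes and 0% of all genes. At an unadjusted p below 0.05 there were 10 potassium channel genes for PTU in WT and 1 to 8 in each of the other 9. These counts were not set beside all genes at that threshold, so no excess over all genes can be read from them. DESeq2 called 1 for PTU in WT (Kcnj10) and 0 in those 9.

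Kcnk1 stood at 73.5, 135, 127 and 116 CPM in mutant PTU+TH, at 161, 124, 94.1 and 65.5 CPM in mutant PTU and at 120, 152, 124 and 124 CPM in mutant untreated striatum. WT striatum had 178, 163, 105 and 153 CPM with PTU+TH, 71.4, 76.2, 69.8 and 69.9 CPM with PTU and 112, 103, 164 and 123 CPM untreated. The WT PTU libraries lay close together and below all other WT libraries, while the mutant groups overlapped. In WT, Kcnk1 was 2.09-fold higher with TH (log2 1.06 ± 0.22, adjusted p = 0.0327).

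For Kcnk1 the mutant change with TH was 0.02 ± 0.22 (95% interval -0.42 to 0.47, adjusted p = 0.991). The mutant minus WT difference was -1.04 ± 0.31 and was not called (95% interval -1.67 to -0.41, adjusted p = 0.57). PTU against untreated gave -0.22 in mutant (adjusted p = 0.674) and -0.80 ± 0.22 in WT (adjusted p = 0.283). Kcnk1 shares 179 exon bases with Gm45875 on the other strand.

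Kcnj10 stood at 109, 171, 174 and 317 CPM in mutant PTU+TH, at 192, 173, 132 and 99.3 CPM in mutant PTU and at 204, 177, 199 and 205 CPM in mutant untreated striatum. WT striatum had 222, 238, 179 and 156 CPM with PTU+TH, 78.3, 109, 98.5 and 101 CPM with PTU and 171, 162, 219 and 184 CPM untreated. The WT PTU libraries were again below every other WT library, and the mutant groups overlapped. In WT, Kcnj10 was 2.06-fold higher with TH (log2 1.04 ± 0.23, adjusted p = 0.0455).

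For Kcnj10 the mutant change with TH was 0.37 ± 0.23 (95% interval -0.10 to 0.84, adjusted p = 0.965), and the mutant minus WT difference was -0.67 ± 0.32 (-1.34 to -0.004, adjusted p = 0.851). PTU against untreated gave -0.40 in mutant (adjusted p = 0.514) and -0.93 ± 0.23 in WT (adjusted p = 0.241). The 8 astrocyte markers summed to 4610 to 5016 CPM with PTU+TH, 4442 to 4938 CPM with PTU and 4521 to 4697 CPM untreated in WT striatum. In mutant striatum they summed to 3990 to 4784 CPM with PTU+TH, 3945 to 4996 CPM with PTU and 4524 to 5295 CPM untreated. None of the 8 was at 0, the groups overlapped within each genotype, and the part of astrocytes in the Kcnj10 result was not tested.

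Both striatal calls were lost without any 1 of 7 of the 8 libraries, and held only without WT PTU+TH replicate 3. Calls over all genes in this comparison, 72 with every library, ranged from 0 to 357 in these fits. Without WT PTU+TH replicate 1, 2 or 4 the adjusted p was 0.131, 0.106 and 0.0905 for Kcnk1 and 0.161, 0.136 and 0.0786 for Kcnj10. Without WT PTU replicate 1, 2, 3 or 4 it was 0.119, 0.0693, 0.108 and 0.0743 for Kcnk1 and 0.164, 0.0714, 0.115 and 0.0858 for Kcnj10. The log2 changes stayed between 0.96 and 1.21 for Kcnk1 and between 0.95 and 1.13 for Kcnj10.

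The next gene by p in striatum was Kcng1, a silent Kv modifier subunit, which was not called (log2 0.76 ± 0.18 with TH in WT, adjusted p = 0.0595) and is named after its values were seen. DESeq2 (adjusted p = 0.00869), no filter on low counts (0.00209) and the covariate of reads on no feature (0.0128) did call it. So did leaving out WT PTU replicate 4 (0.0461) or WT PTU+TH replicate 3 (0.0357). RLE size factors, the replicate block and leaving out any other library did not. Kcng1 averaged 43.0 ± 8.51 CPM in PTU+TH and 54.3 ± 8.68 CPM in PTU in mutant striatum, and 63.3 ± 11.4 and 37.4 ± 9.71 CPM in the same groups of WT striatum (SD, n = 4 each). The mutant change was -0.33 ± 0.18 (adjusted p = 0.965), and the mutant minus WT difference was -1.09 ± 0.26 (95% interval -1.63 to -0.56, adjusted p = 0.541). Of the alternatives, only no filter on low counts called this difference (-1.11, adjusted p = 0.0117). Of the 16 listed partner genes tested in striatum, 0 were called by edgeR in any comparison, with 5 at an unadjusted p below 0.05 for TH in WT. The 5 were not set beside all genes at that threshold, so no excess can be read from them. DESeq2 was not read for partner genes.

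**Figure D5:**
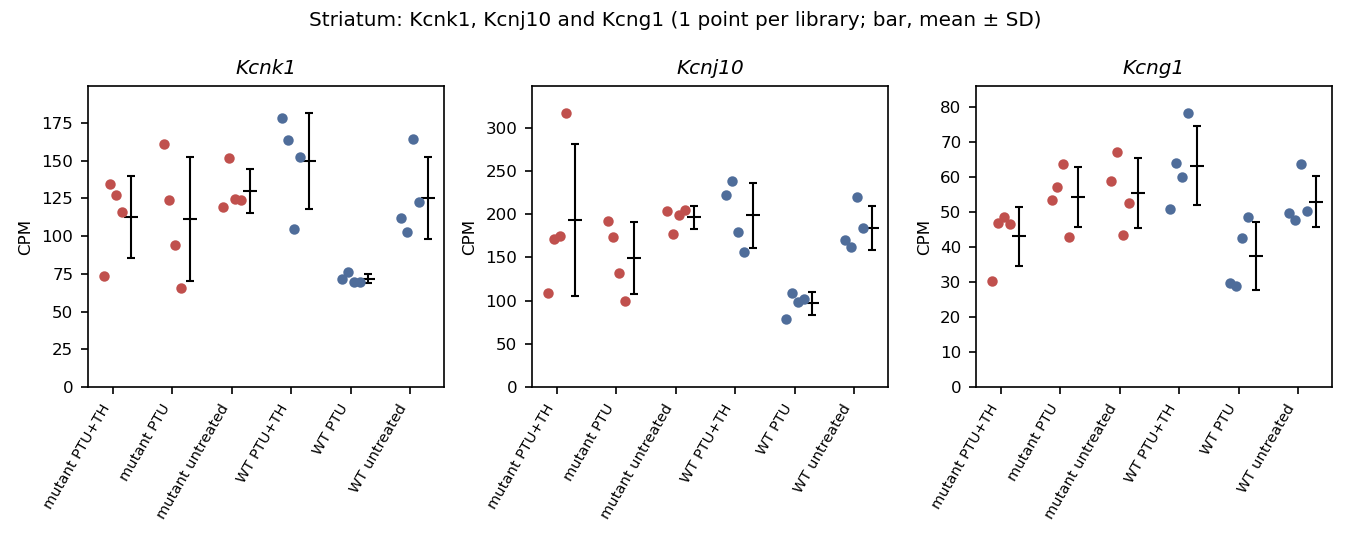
Level (CPM) of Kcnk1, Kcnj10 and Kcng1 in striatum, by group, with 1 point per library (mutant red, WT blue) and a bar for mean ± SD. WT PTU libraries are the lowest WT libraries for Kcnk1 (69.8 to 76.2 CPM) and Kcnj10 (78.3 to 109 CPM), and the mutant groups overlap.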

How the data were processed

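RNA from mouse heart and striatum was sequenced with the CORALL V2 kit, per the labels' protocols. Raw counts per gene are what the authors deposited. Bowtie2, HTSeq and build GRCm39 are named without versions, per the submitters' processing notes. Not given in the sources used here are the annotation release, the strand setting, trimming and any use of molecular identifiers. Reads with no unique alignment (23.08 to 35.89% in heart, 12.89 to 17.28% in striatum) and lines that name no gene stayed out of library sizes.

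Each tissue was fitted alone in edgeR 4.0.16 (R 4.3.3) with 1 coefficient per group, filterByExpr at a minimum count of 10, TMM scaling and the two-sided quasi-likelihood F test. Adjusted p are Benjamini-Hochberg over all genes tested in a comparison, at a threshold of 0.05, and 11 comparisons were made per tissue. Levels are CPM after TMM. Intervals are 95% intervals of the fitted coefficient. CPM per kb uses the exon union of GENCODE M21 on GRCm38, which held all 80 genes, and 23 of them overlap exons of the opposite strand by at least 50 bases. The fit was tested on simulated counts.

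The named genes were those called in at least 1 comparison, with values in every library for the 12 of smallest adjusted p in heart, Kcne1 and Kcnj10 in each group, the 5 highest per kb and called partner genes, and 1 of these genes, which counts of calls include, is not reported here. The genes, families, partner and marker lists were chosen with earlier results of these data known. Alternatives were no filter on low counts, RLE size factors, DESeq2 1.42.0, a replicate block and leaving out each library, and, chosen after seeing the data, the share of reads on no feature as a covariate and leaving out both WT PTU and WT untreated replicate 1 of heart. The labels do not say what a replicate number shares. In WT hearts, all 4 same-numbered pairs deviated together across genes with r above 0.1 for PTU against untreated (0.104 to 0.598). So did all 4 for PTU+TH against PTU (0.121 to 0.282). In these, 3 and 2 of 4 libraries correlated best with their own number, so pairing is not settled. No other comparison passed 0.1 in every pair. PTU+TH against untreated in WT hearts did in 3 of 4 (0.0858 to 0.234). In striatum, PTU+TH against PTU in WT (-0.145 to 0.38) and mutant against WT with PTU+TH (0.0444 to 0.455) also did in 3 of 4. The main tests did not use the numbers. The block took a number as shared across genotypes too, where r ran from -0.249 to 0.117 in hearts and from -0.23 to 0.455 in striatum.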

Additional observations from a re-analysis of the deposited data

Results flagged for a closer look

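In striatum, Kcnk1 stood at 152 CPM in mutant untreated replicate 2, against 120 to 124 CPM in the other 3 libraries of that group. The gap to the nearest library was 0.848 of the group's range, above Dixon's 95% critical value for 4 libraries. It was the 1 library marked among 60 groups tested, and chance marks about 1 in 20 groups. None of the Kcnk1 comparisons that use this group was called.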

How the results depend on the processing

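Of 30 calls on single potassium channel genes, DESeq2 and RLE size factors kept 30, no filter on low counts kept 21, the share of reads on no feature as a covariate kept 22, and 0 reversed under any setting. Counts of genes called moved as follows. Without a filter on low counts they were 3 for PTU in mutant hearts, 3 for TH in mutant hearts, 4 for mutant against WT in PTU hearts, 2 and 1 for the genotype difference in the heart PTU and TH responses, 2 for PTU in WT striatum and 1 for the difference in the striatal TH response. With DESeq2 they were 3 for TH in mutant hearts, 2 for PTU+TH against untreated WT hearts, 1 for the difference in the heart PTU response and 1 for PTU in WT striatum. With the covariate they were 3 for PTU in mutant hearts and 1 for mutant against WT in PTU hearts. Without both WT PTU and WT untreated replicate 1 of heart, 14 of 15 calls held and the difference in the heart PTU response gave 1. The causes were not tested. Calls over all genes under these settings, and under the replicate block below, are not given here. A shift in these counts therefore cannot be told from a general rise or fall in calls.

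With the replicate number as a block, the counts were 1 for TH in mutant hearts (Kcne1, adjusted p = 0.0472), 2 for PTU+TH against untreated WT hearts, 1 for the difference in the heart TH response (Kcnv2, adjusted p = 0.0407) and 1 for TH in WT striatum, and the block kept 28 of the 30 calls. It lost Kcnj3 for PTU+TH against untreated in mutant hearts (adjusted p = 0.0502) and Kcnj10 for TH in WT striatum (adjusted p = 0.0613). In neither did every same-numbered pair have r above 0.1, though 2 of 3 did in the first and 3 of 4 in the second. In the 2 comparisons where every pair did, the block lost no call and added Kcna1 for PTU in WT hearts.

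Leaving out 1 library at a time kept 128 of 219 calls. In WT hearts the counts ranged from 2 to 5 for PTU, 6 to 7 for TH and 0 to 1 for PTU+TH against untreated, and in mutant hearts from 0 to 9, 0 to 1 and 3 to 11. Mutant against WT ranged from 0 to 3 in PTU hearts and from 0 to 0 in untreated and PTU+TH hearts, and the heart genotype differences from 0 to 2 for each response. In striatum TH in WT ranged from 0 to 4, and every other comparison stayed at 0. Calls over all genes moved as well. For PTU, TH and PTU+TH against untreated, WT hearts had 483 to 1069, 1160 to 1681 and 121 to 302. Mutant hearts had 85 to 3163, 15 to 106 and 1173 to 3902. Mutant against WT in PTU hearts had 78 to 324, and TH in WT striatum had 0 to 357. Low counts limit Kcna1, Kcnc1, Kcnq5 and Kcnab2 in heart, and the partner genes Lrrc52 and Lrrc55. The shallowest library, replicate 2, limits the untreated mutant hearts.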
